A study of Mus musculus with 35 samples.

Results

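The genes described here are 10 members of the Sox family of transcription factors, taken by name from the 30723 gene symbols of the deposited tables. They are Sox1, Sox2 and Sox3 (SoxB1), Sox21 (SoxB2), Sox11 (SoxC), Sox5 and Sox6 (SoxD), and Sox8, Sox9 and Sox10 (SoxE). The choice went by name and not by a cut on expression values, but it was made with earlier results of these data known. All 10 passed the filter on low values, which asked that 1 or more tissues average 1 FPKM, as did 13934 genes in all.

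Their RNA was measured in 35 bulk RNA-seq libraries from wild-type CD1 mouse embryos at embryonic day 11.5, none of them treated or mutant. Neural tissue was dorsal brain (dB) and ventral brain (vB), which the sample labels call dorsal and ventral neural tube, with 6 libraries each. Facial tissue was the frontonasal (FNP, 6 libraries), mandibular (MNP, 6) and maxillary (MXP, 5) prominences, the outgrowths that form the face, and limb gave the remaining 6 libraries. By the methods, each library pooled tissue from several embryos, so that differences between single embryos are averaged and every sample is a mixture of cell types. In such bulk samples fewer cells of a type and less RNA per cell cannot be told apart.

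Levels are in FPKM, fragments mapped, scaled by transcript length and by the size of the library, estimated per transcript by Cufflinks and summed per gene. Differences are log2 fold changes of FPKM + 1 from 1 limma fit over all 35 libraries, and they understate the change of genes with few FPKM. A gene was called at a Benjamini-Hochberg adjusted p under 0.05, over all 13934 genes, and a fold change of at least 2. Neural and facial values of the fit are means of tissue means. The tables hold no read counts, so the depth behind a single value is unknown and no counting interval is given. A level of 1 FPKM stood for a coverage of 2.70 to 5.51, depending on the library, and 11742 to 12955 genes reached 1 FPKM. In replicate 1 of each tissue a single gene held 14.2 to 36.0% of all FPKM, against 1.33 to 7.61% in the other libraries. Whether this lowered the values of other genes there was not tested. Replicates 1 to 3 and replicates 4 to 6 came from different sequencing runs. FNP replicates 4 and 5, MXP replicate 5 and limb replicate 1 stood apart from the other libraries of their tissue in neural progenitor genes, and vB replicate 4 had the lowest value of vB for each of the 10 Sox genes.

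All Sox proteins bind DNA through an HMG box, a domain that fits into the minor groove and bends the helix, and they act with partner factors that differ between cell types. SoxB1 proteins hold neural progenitors in an undifferentiated state, and SoxB2 proteins oppose them. SoxC proteins act in newborn neurons and in mesenchyme. SoxD proteins carry no activation domain of their own and work beside SoxE proteins in cartilage, while SoxE proteins act in neural crest, glia and cartilage.

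The relatedness of the 10 genes could be read from their coding sequence, and it bears on whether short reads can tell them apart. Shown here is the 30-base stretch that codes for a conserved core of the HMG box, from the GENCODE transcripts of GRCm38, the assembly of mm10. It lies in the only exon of Sox1, Sox2, Sox3, Sox21 and Sox11 and in exon 1 of 3 of Sox8 and Sox9. In Sox5, Sox6 and Sox10 it lies in exon 13 of 15, exon 14 of 16 and exon 3 of 5. Capitals mark bases that differ from Sox2.
Sox1 chr8:12396514-12396543, plus strand: aagCggcccatgaacgccttcatggtGtgg
Sox2 chr3:34650545-34650574, plus strand: aagaggcccatgaacgccttcatggtatgg
Sox3 chrX:60892969-60892998, minus strand: aagCgAcccatgaacgcGttcatggtGtgg
Sox21 chr14:118235582-118235611, minus strand: aagCggcccatgaacgccttcatggtGtgg
Sox11 chr12:27342232-27342261, minus strand: aaACggcccatgaacgccttcatggtGtgg
Sox5 chr6:143841247-143841276, minus strand: aagCgTccAatgaaTgccttcatggtGtgg
Sox6 chr7:115489736-115489765, minus strand: aagCgAccAatgaaTgcGttcatggtTtgg
Sox8 chr17:25570196-25570225, minus strand: aagCggcccatgaaTgccttcatggtGtgg
Sox9 chr11:112782900-112782929, plus strand: aagCgAcccatgaacgccttcatggtGtgg
Sox10 chr15:79163375-79163404, minus strand: aagaggcccatgaacgccttcatggtGtgg
At 23 of the 30 positions all 10 genes had the same base, and Sox1 and Sox21 had the same stretch. The stretch was picked as the one of Sox2 with the fewest mismatches to the other genes. High identity within it therefore follows from the choice. Sox10 differed from Sox2 at 1 position, while Sox6, the most distant by this count, differed at 6. Over the 180 bases that start with this stretch, the 10 pairs of genes of the same group, with Sox21 counted as SoxB, were 82.2 to 90.6% identical (median 88.0%). The 35 pairs from different groups were 52.8 to 76.1% identical (median 65.0%). The longest run of identical bases shared by the transcripts of any pair of these genes was 45 bases, between Sox1 and Sox3, and 0 pairs shared a run as long as the reads of 75 bases.

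The 10 genes fell into a neural set, a set with an order of its own across the face, and a set with few or no calls. Of the 10, 5 were called higher in neural tissue than in the face (Sox1, Sox2, Sox3, Sox21 and Sox6) and 1 was lower (Sox10), where 6.64% and 4.64% of all genes tested were called in those directions. Against limb the same 5 were higher in neural tissue and 0 were lower, where 8.05% and 4.36% of all genes were called, and both comparisons share the neural libraries. Between facial tissue and limb 2 were called, Sox2 and Sox10, both higher in facial tissue, where 1.51% of all genes were called higher. The median log2 fold change of the 10 genes was 0.79 for neural against facial tissue and 0.76 for neural tissue against limb, while over all genes tested it was −0.02 and −0.01. At least 1 pair of the 6 tissues was called for 8 of the 10 genes and for 21.3% of all genes tested, while single pairs called 1.03 to 13.6% of all genes. Sox11 and Sox5 were the exceptions, but the count was 10 of 10 within replicates 1 to 3 alone, where 23.6% of all genes were called, and 7 within replicates 4 to 6 alone, where 18.7% were.

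**Figure D1:**
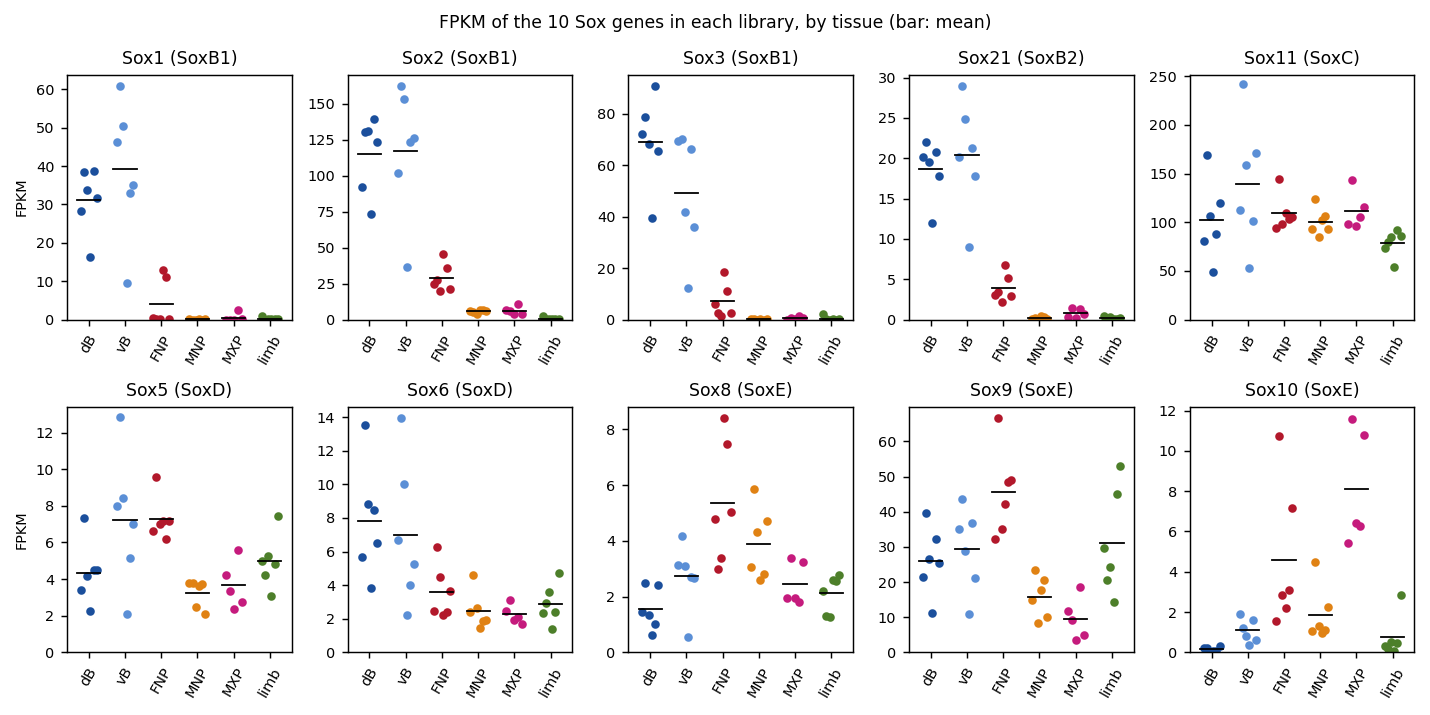
Each point is 1 library and each panel 1 gene, with its level in FPKM on the vertical axis, the 6 tissues on the horizontal axis and a bar at the mean. Sox1, Sox2, Sox3 and Sox21 were highest in dB and vB, Sox11 lay between 48.4 and 242 FPKM in every tissue, and the mean of Sox10 was highest in MXP.

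Sox2, the SoxB1 factor of pluripotent cells and neural progenitors, had the highest level of the 4 SoxB genes in every neural library and the most separated tissues of all 10 genes. It had 92.3, 130.4, 130.8, 73.7, 139.6 and 124 FPKM in dB, and 102, 162, 153, 36.4, 124 and 126 FPKM in vB. In the face it had 24.9, 27.7, 20.0, 45.7, 35.8 and 21.4 FPKM in FNP. Thus vB replicate 4 lay below FNP replicate 4, and all other neural libraries lay above all FNP libraries. MNP had 6.00, 5.11, 3.63, 6.96, 6.83 and 6.31 FPKM and MXP had 6.94, 5.79, 3.69, 10.5 and 4.18 FPKM, against 2.64, 0.16, 0.15, 0.31, 0.23 and 0.39 FPKM in limb. Every facial library was therefore above every limb library, the highest of which was replicate 1.

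In the fit, Sox2 of neural tissue exceeded that of facial tissue by 3.33 on the log2 scale (SE 0.19, adjusted p = 3.5e-16 in limma) and that of limb by 6.21 (SE 0.25, adjusted p = 6.0e-20). Facial tissue was above limb by 2.89 (SE 0.24, adjusted p = 3.3e-11). Of the 15 pairs of tissues 13 were called, and the pairs that were not were dB with vB (log2 fold change 0.08, adjusted p = 0.96) and MNP with MXP. The order of the means was vB and dB, then FNP, then MXP and MNP, then limb, and neighbours differed at each of the 3 steps between these levels.

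Sox1, a SoxB1 factor known from the neural plate and neural tube, had 28.2, 38.5, 33.8, 16.4, 38.8 and 31.6 FPKM in dB, and 46.1, 60.8, 50.4, 9.47, 32.9 and 35.1 FPKM in vB. In FNP it had 0.49, 0.12, 0.06, 12.9, 11.02 and 0.09 FPKM, so that replicates 4 and 5 stood above the rest and above vB replicate 4. MNP lay between 0 and 0.07 FPKM, MXP between 0 and 2.47 FPKM with 2.47 FPKM in replicate 5, and limb between 0 and 0.97 FPKM with 0.97 FPKM in replicate 1. Neural tissue was higher than facial tissue by 4.44 (SE 0.33, adjusted p = 2.0e-13 in limma) and higher than limb by 4.82 (SE 0.44, adjusted p = 3.9e-11). Facial tissue and limb were 0.38 apart (95% interval −0.47 to 1.23), and of the 15 pairs of tissues 8 were called, each a neural tissue with FNP, MNP, MXP or limb. Within replicates 4 to 6 the 2 pairs with FNP were not called, at 2.32 for dB (adjusted p = 0.086) and 2.04 for vB (adjusted p = 0.087).

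Sox3, the X-linked SoxB1 gene of neural and pituitary progenitors, had 72.0, 78.7, 68.2, 39.4, 90.7 and 65.5 FPKM in dB, and 69.6, 70.1, 41.9, 12.2, 66.1 and 36.0 FPKM in vB. FNP had 6.21, 2.63, 1.40, 18.4, 10.9 and 2.69 FPKM, with replicates 4 and 5 again the highest. MNP lay between 0 and 0.10 FPKM, MXP lay between 0.04 and 1.51 FPKM, and limb between 0 and 0.07 FPKM apart from 2.06 FPKM in replicate 1. The neural to facial difference was 4.67 (SE 0.26, adjusted p = 1.1e-16 in limma), the largest of the 10 genes, and the neural to limb difference was 5.46 (SE 0.34, adjusted p = 4.3e-15). Both neural tissues were above FNP and FNP was above MXP, limb and MNP, and no pair among those 3 was called. Facial tissue and limb differed by 0.79 (adjusted p = 0.11), and by 1.05 (adjusted p = 0.031) without limb replicate 1.

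Sox21, a SoxB2 repressor that promotes exit from the progenitor state, had 20.2, 21.99, 19.6, 12.0, 20.8 and 17.8 FPKM in dB and 20.2, 28.9, 24.9, 8.97, 21.3 and 17.9 FPKM in vB. FNP held 3.04, 3.46, 2.24, 6.81, 5.14 and 2.87 FPKM, and no FNP library reached a neural one. MNP lay between 0.10 and 0.49 FPKM, MXP between 0.22 and 1.45 FPKM, and limb between 0.03 and 0.49 FPKM. Its neural to facial difference was 3.21 (SE 0.14, adjusted p = 2.3e-19 in limma), with no overlap between the 12 neural and the 17 facial libraries. Facial tissue and limb differed by 0.84 (adjusted p = 0.00078), short of the fold of 2.

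Sox2 made up the largest part of the summed SoxB1 FPKM in the brain and nearly all of it in MNP. Of the sum of Sox1, Sox2 and Sox3, Sox2 made up 53.6 ± 3.4% in dB (SD, n = 6) and 57.8 ± 6.6% in vB (n = 6). Sox3 made up 32.04 ± 3.08% in dB and 23.6 ± 6.1% in vB, and Sox1 made up 14.4 ± 0.9% in dB and 18.6 ± 2.7% in vB (SD, n = 6 each). In MNP it made up 98.6 ± 0.7% (n = 6), with Sox1 and Sox3 each under 2%, and in FNP the share ranged from 59.4 to 93.2%. The ratio of Sox2 to Sox1 was 3.27 to 4.50 in dB and 2.21 to 3.85 in vB. In FNP replicates 4 and 5 it was 3.54 and 3.25, within the range of the neural libraries, against 51.1 to 331 in the other 4 FNP libraries. In MXP the ratio was 4.26 in replicate 5, within the neural range, against 43.4 and 399.9 in replicates 6 and 2, with Sox1 at 0 in the others. Limb replicate 1 had 2.73, and limb replicates 3, 4, 5 and 6 had 3.45, 10.3, 1.35 and 8.18, so that limb replicate 3 lay in the neural range too, at 0.044 FPKM of Sox1.

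The libraries with Sox1 outside the brain also carried other neural progenitor genes. A list of 10 such genes (Nes, Pax6, Hes5, Fabp7, Msi1, Pou3f1, Pou3f2, Pou3f3, Pou3f4 and Notch1) had a mean log2(FPKM + 1) of 3.71 in FNP replicate 4 and 3.51 in FNP replicate 5, against 2.18 to 2.56 in the other FNP libraries. It was 2.78 in MXP replicate 5, where the other MXP libraries had 2.18 to 2.49, and 2.06 in limb replicate 1, where the others had 0.83 to 1.33. Of the 10 genes, 7 and 9 were higher in FNP replicates 4 and 5 than in any other FNP library beside these, 5 in MXP replicate 5 and 9 in limb replicate 1. Of 12 neuron genes the counts were 4, 5, 0 and 10. In dB and vB the progenitor list ran from 4.21 to 5.97, with vB replicate 4 lowest. Whether cells of neighbouring neural tissue account for these values was not tested.

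**Figure D2:**
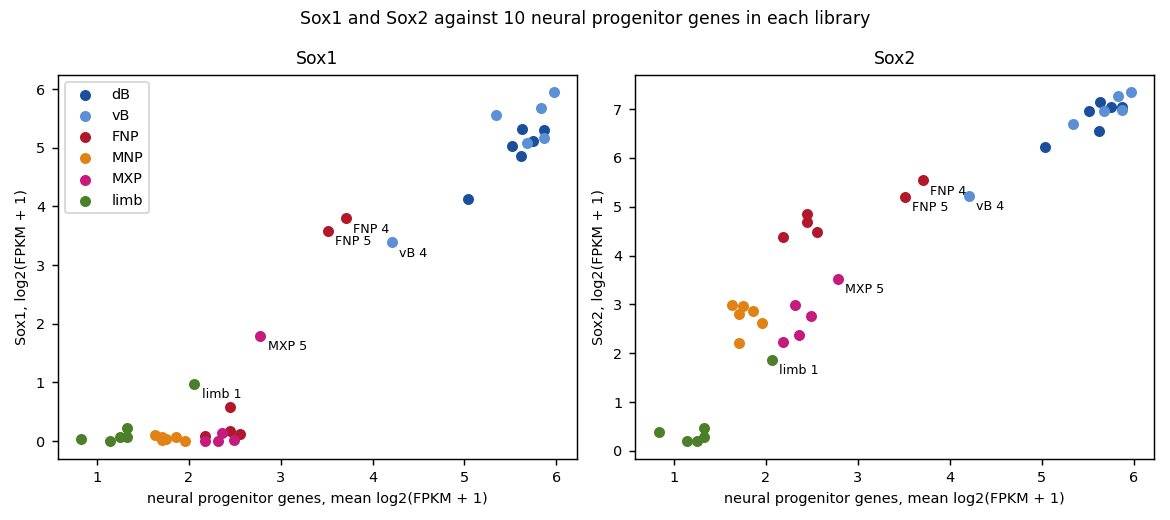
Each point is 1 library, with the mean log2(FPKM + 1) of the 10 neural progenitor genes on the horizontal axis and log2(FPKM + 1) of Sox1 (left) or Sox2 (right) on the vertical axis, coloured by tissue. FNP replicates 4 and 5, MXP replicate 5 and limb replicate 1 stand above the other libraries of their tissue for Sox1, while Sox2 is present in every FNP, MNP and MXP library.

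Without those 4 libraries, an alternative chosen after the data were seen, FNP had 0.19 ± 0.20 FPKM of Sox1, 23.5 ± 3.5 FPKM of Sox2, 3.24 ± 2.07 FPKM of Sox3 and 2.90 ± 0.51 FPKM of Sox21 (SD, n = 4). Each of these 4 FNP libraries had at least 20.0 FPKM of Sox2, 1.40 FPKM of Sox3 and 2.24 FPKM of Sox21, and at most 0.49 FPKM of Sox1. The 4 SoxB calls between neural and facial tissue were made with and without these libraries, and also within replicates 1 to 3 and within replicates 4 to 6. In the first set of runs the Sox1 difference was 5.31 and in the second 3.51, and for Sox3 the values were 5.24 and 4.05.

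Within the face, the FNP differed from the MNP and MXP in the same 4 genes, Sox2, Sox3, Sox21 and Sox9, all higher in FNP, whose libraries both comparisons share. Of all genes tested, 1.69% were called higher in FNP than in MNP and 1.53% higher in FNP than in MXP. None of the 10 genes was called lower in FNP in the fit of all libraries (limma), as 0.990% and 0.746% of all genes were. At an unadjusted p under 0.05, 7 and 6 of the 10 were higher in FNP, and 0 and 1 were lower. The share of all genes at that looser threshold was not counted, and the shares above do not apply to it. Sox5 against both tissues, and Sox8 against MXP (0.83, adjusted p = 0.045 in limma), missed only the fold of 2. With a pseudocount of 0.1, 6 and 5 of the 10 were called, where 5.45% and 4.16% of all genes were called in either direction. Sox2 was 2.12 above MNP (SE 0.29, adjusted p = 3.0e-06 in limma) and 2.08 above MXP (SE 0.31, adjusted p = 1.2e-05). The differences of Sox3 were 2.55 and 2.00 and those of Sox21 1.95 and 1.44. Of the Sox3 libraries, FNP replicate 3 (1.40 FPKM) lay below MXP replicate 5 (1.51 FPKM), and all other FNP libraries lay above all MXP and MNP libraries. Within replicates 4 to 6 alone, where MXP has 2 libraries, none of the 4 passed the test between FNP and MXP (limma, adjusted p = 0.062 for Sox2, 0.20 for Sox3, 0.059 for Sox21 and 0.23 for Sox9), and 3 were called between FNP and MNP. Of all genes, 0.780% were called there for FNP against MXP and 1.44% for FNP against MNP, in either direction. Within replicates 1 to 3 the counts were 5 for FNP against MNP and 5 for FNP against MXP. Over all genes the shares called there were 2.45% and 1.98%.

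Other genes of the nasal placodes, which lie in the FNP and share many factors with the forebrain, were measured beside these. Of a list of 5 (Fezf1, Sp8, Six3, Emx2 and Lhx2), 4 were higher in FNP than in MNP and 4 higher than in MXP, with medians of 3.43 and 3.01 on the log2 scale. Fezf1, a forebrain and olfactory factor, had 13.2 ± 1.2 FPKM in FNP (SD, n = 6) and 0.022 ± 0.033 FPKM in MNP (n = 6). Lhx2, a LIM homeobox factor, had 19.5 ± 6.4 FPKM in FNP (n = 6) and 0.91 ± 0.67 FPKM in MNP (n = 6). Emx2, a homeobox factor of forebrain, was the gene called in neither, named here after its values were seen, with 8.38 ± 1.93 FPKM in FNP (n = 6), 4.77 ± 2.13 FPKM in MNP (n = 6) and 17.5 ± 11.3 FPKM in MXP (n = 5), and its FNP to MXP difference was −0.73 (unadjusted p = 0.046, adjusted p = 0.34 in limma). Of the neural progenitor list, 3 of 10 genes were higher in FNP than in MNP and 1 higher than in MXP, and of the 12 neuron genes 6 and 4. The share of the SoxB difference that goes with placode cells, with neurons or with forebrain tissue was not tested.

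The sequence before the start site of these genes is shown because SoxB genes were called together between tissues and Sox11 was not. Windows of 250 bases before RefSeq's start were taken from its table (GRCm38.p6), which gave a window for 7 of the 10 genes, with 6 windows for Sox6. Capitals mark matches, on either strand, to 4 short motifs. These were the Sox core ACAAT or ATTGT, the GC box GGGCGG or CCGCCC, the CCAAT box CCAAT or ATTGG, and the TATA box TATAAA or TTTATA, and no match to one overlapped a match to another in the windows printed.
Sox1 chr8:12395269-12395518, plus strand: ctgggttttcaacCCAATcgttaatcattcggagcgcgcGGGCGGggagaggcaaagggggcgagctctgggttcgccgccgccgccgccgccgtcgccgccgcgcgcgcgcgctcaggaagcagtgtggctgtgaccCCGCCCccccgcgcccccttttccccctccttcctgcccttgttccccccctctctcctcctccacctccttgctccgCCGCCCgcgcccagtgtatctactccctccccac
Sox2 chr3:34649745-34649994, plus strand: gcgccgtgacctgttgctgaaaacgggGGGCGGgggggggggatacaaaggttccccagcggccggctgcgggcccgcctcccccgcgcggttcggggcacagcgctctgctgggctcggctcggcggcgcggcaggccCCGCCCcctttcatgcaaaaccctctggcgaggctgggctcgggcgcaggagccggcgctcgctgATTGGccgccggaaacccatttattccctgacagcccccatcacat
Sox21 chr14:118237031-118237280, minus strand: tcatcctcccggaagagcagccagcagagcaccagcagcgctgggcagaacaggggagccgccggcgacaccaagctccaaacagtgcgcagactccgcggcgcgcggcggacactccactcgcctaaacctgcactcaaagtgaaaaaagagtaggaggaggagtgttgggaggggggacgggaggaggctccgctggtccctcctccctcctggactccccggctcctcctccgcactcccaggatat
Sox11 chr12:27342719-27342968, minus strand: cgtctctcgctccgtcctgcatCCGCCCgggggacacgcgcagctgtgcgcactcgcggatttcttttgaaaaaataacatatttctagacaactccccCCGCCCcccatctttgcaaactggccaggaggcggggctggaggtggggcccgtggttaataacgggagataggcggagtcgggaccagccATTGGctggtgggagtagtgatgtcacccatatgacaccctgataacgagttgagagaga
Sox1 held 3 GC boxes and 1 CCAAT box, Sox2 held 2 and 1, Sox11 held 2 and 1, and Sox21 held 0 of the 4 motifs. Neither the Sox core nor the TATA box had a match in these 4 windows. Of all 32851 windows of this length, 27.7% had the Sox core, 32.7% a GC box, 33.8% a CCAAT box and 12.4% a TATA box. The G and C content was 71.2% for Sox1, 72.0% for Sox2, 65.2% for Sox21 and 58.0% for Sox11, with a median of 52.4% over all windows. A match here is a run of letters and not a measured binding site.

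At 3 of these loci another gene overlaps the Sox gene, and each was higher in neural tissue as the Sox gene was. Sox2 (chr3:34650005-34652460, mm10) lies inside Sox2ot (chr3:34560381-34680851), a long noncoding gene, which had 9.25 ± 4.02 FPKM in dB and 16.7 ± 10.8 FPKM in vB (SD, n = 6 each), against 0.05 to 0.25 FPKM in the MNP and MXP libraries. It exceeded its facial level in neural tissue by 3.15 (SE 0.19, adjusted p = 6.2e-16 in limma). Gm5607 spans Sox1 on chromosome 8 and AK039417 overlaps Sox21 on chromosome 14, with 7.11 ± 5.40 FPKM and 5.77 ± 2.02 FPKM in vB (SD, n = 6 each), against 0.012 ± 0.008 FPKM and 0.076 ± 0.044 FPKM in MNP (n = 6 each). Their neural to facial differences were 1.84 (adjusted p = 1.9e-09 in limma) and 2.18 (adjusted p = 4.3e-18). Gm5607 was lower in dB than in vB by 1.41 (SE 0.31, adjusted p = 0.0046), while Sox1 differed there by −0.18 (adjusted p = 0.93). Whether the estimates used strand is not given in the sources used here, so the share of reads that belongs to each gene of such a pair is uncertain. At the Sox5 locus, 4933425H06Rik was listed at 0 in 33 of 35 libraries.

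Sox11, the SoxC gene of the 10 and a factor of newborn neurons and many mesenchymes, was the most even. It had 48.4 to 168.8 FPKM in dB (median 97.4) and 52.6 to 242 FPKM in vB (median 136). FNP had 94.5 to 144 FPKM (median 105), MNP 84.5 to 124 FPKM (median 97.5), MXP 96.6 to 143 FPKM (median 105) and limb 54.5 to 92.0 FPKM (median 82.5). All FNP and all MXP libraries thus lay above all limb libraries. The neural to facial difference was 0.05 (95% interval −0.28 to 0.37), the neural to limb difference 0.49 (0.06 to 0.93) and the facial to limb difference 0.45 (0.04 to 0.86), so that a fold of 2 lay outside each of these 3 intervals. None of the 15 pairs of tissues was called in limma, with 1 pair at an unadjusted p under 0.05, and the means ran in the order vB, MXP, FNP, dB, MNP, limb with no neighbours that differed. That pair was vB against limb, at 0.69 (95% interval 0.19 to 1.19, adjusted p = 0.021), and within replicates 1 to 3 it was called at 1.03 (adjusted p = 0.0098). The spread was wider in the brain than in the face, with a coefficient of variation of 47.1% in vB and 39.9% in dB, against 13.9 to 17.1% in the other 4 tissues. Replicate 2 was the highest library in dB, vB, FNP, MNP and MXP, and replicate 4 the lowest in dB, vB and limb.

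The SoxD genes Sox5 and Sox6 were low everywhere. Sox6, which in the brain and in cartilage works with SoxE factors, had 3.82 to 13.5 FPKM in dB (median 7.49) and 2.20 to 13.9 FPKM in vB (median 5.95). FNP, MNP, MXP and limb had medians of 3.08, 2.16, 2.10 and 2.67 FPKM, and their libraries overlapped the neural ones. Neural tissue exceeded facial tissue by 1.08 (SE 0.19, adjusted p = 9.2e-06 in limma) and limb by 1.03 (SE 0.25, adjusted p = 0.00088), both just past the fold of 2. Without vB replicate 2 the first was 0.97, and within replicates 4 to 6 it was 0.88, so neither was called. The call against limb was lost without any one of dB replicate 2, vB replicate 2, vB replicate 3, limb replicate 1 or limb replicate 4, with values of 0.90 to 1.00, and also under quantile normalization (0.90) and with the sequencing run as a block (0.88), while the fold stayed positive. Within replicates 4 to 6 it was 0.67 (adjusted p = 0.12).

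Sox5, the other SoxD gene, had 2.26 to 7.32 FPKM in dB, 2.11 to 12.8 FPKM in vB, 6.19 to 9.59 FPKM in FNP, 2.08 to 3.79 FPKM in MNP, 2.39 to 5.61 FPKM in MXP and 3.08 to 7.43 FPKM in limb. Every FNP library was above every MNP and MXP library, yet no pair of tissues was called in limma, with 7 pairs at an unadjusted p under 0.05. Of these, vB against MNP (adjusted p = 0.0045) and MXP (0.019), FNP against MNP (0.0062) and MXP (0.031), and dB against FNP (0.029) missed only the fold of 2. The FNP to MNP difference lay at the edge of the fold, at 0.98. With a pseudocount of 0.1, FNP was called higher than MNP at 1.17 and higher than MXP at 1.03. Within replicates 1 to 3 Sox5 was called in 4 pairs, vB and FNP each against MNP and MXP, at 1.01 to 1.31, and without vB replicate 4 vB against MNP was called at 1.10. The FNP to MNP difference was 1.03 without the 4 libraries named above and 1.01 to 1.02 without any one of FNP replicate 5 or MNP replicates 1, 2, 4 or 5. Over the 35 libraries Sox5 followed Sox9 (r = 0.82 on the log2 scale, and 0.83 after the tissue means were subtracted), a description over libraries that share tissue and depth. Both SoxD genes have 8 transcripts in the tables, and the transcript with the highest mean, taken alone, gave other levels in all 6 tissues. Of the Sox5 sum in vB, the 2 leading transcripts held 41.4% and 36.7%.

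**Figure D3:**
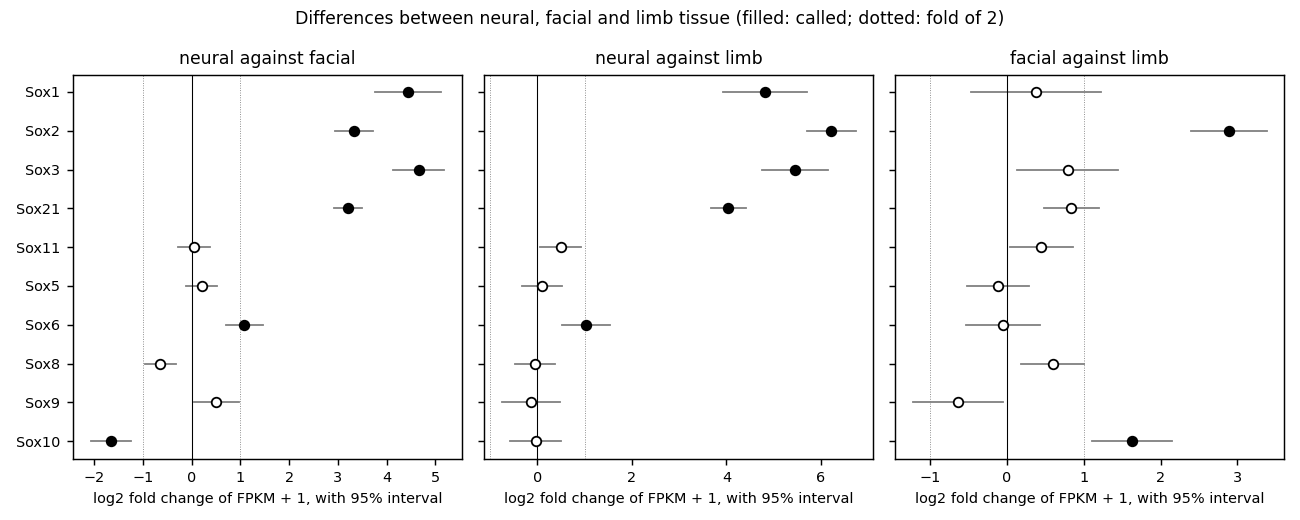
Each row is 1 gene and each panel 1 comparison, with the log2 fold change of FPKM + 1 on the horizontal axis, a line for its 95% interval, filled points for genes that were called and dotted lines at a fold of 2. Sox1, Sox2, Sox3 and Sox21 lie between 3.21 and 6.21 in the panels with neural tissue, Sox6 lies at 1.08 and 1.03, and Sox10 lies at −1.66 for neural against facial tissue and 1.62 for facial tissue against limb.

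Among the SoxE genes, Sox9 had its highest mean in FNP and its lowest in MXP, while Sox10 had its highest in MXP, and both were higher on average in FNP than in MNP. Sox9, a factor of cartilage, crest and neural progenitors, had 32.3, 66.5, 35.1, 42.1, 48.4 and 49.1 FPKM in FNP, 15.01, 23.4, 8.41, 17.8, 20.5 and 10.01 FPKM in MNP, and 11.8, 9.17, 3.40, 18.6 and 5.04 FPKM in MXP. Limb had 29.8, 20.6, 24.1, 14.5, 45.0 and 53.0 FPKM. Every FNP library was above every MNP and MXP library. FNP was higher than MNP by 1.51 (SE 0.35, adjusted p = 0.0033 in limma) and higher than MXP by 2.29 (SE 0.37, adjusted p = 3.9e-05), and MXP was lower than limb by 1.67 (SE 0.37, adjusted p = 0.0017), where 1.44% of all genes were called lower. In replicates 4 to 6 alone the same differences were 1.53, 2.12 and −1.63, and none was called there. The brain lay in between, with 26.1 ± 9.7 FPKM in dB and 29.4 ± 11.8 FPKM in vB (SD, n = 6 each). Both dB and vB were called higher than MXP, dB by 1.46, but not within replicates 4 to 6 alone, at 1.02 and 0.98. Neural tissue differed from facial tissue, a mean over FNP, MNP and MXP, by 0.50 (adjusted p = 0.063).

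Sox10, the SoxE factor that crest cells keep as they become glia or pigment cells, had its highest mean in MXP. FNP had 1.56, 10.7, 2.83, 2.22, 3.08 and 7.16 FPKM, MNP had 1.08, 4.50, 1.32, 0.94, 1.11 and 2.27 FPKM, and MXP had 5.42, 11.6, 6.41, 6.25 and 10.8 FPKM. Replicates 2 and 6 were the highest in each of the 3 prominences. Limb had 0.34, 0.19, 0.49, 0.07, 0.48 and 2.87 FPKM, with replicate 6 alone above 0.5 FPKM. In the brain it lay between 0.03 and 0.31 FPKM in dB, the lowest tissue mean, and between 0.39 and 1.90 FPKM in vB, ranges that did not overlap. The mean of vB was above that of limb, and neural tissue and limb were −0.04 apart on the log2 scale (adjusted p = 0.93 in limma).

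In the fit Sox10 was lower in neural than in facial tissue by 1.66 on the log2 scale (SE 0.20, adjusted p = 1.8e-08 in limma) and higher in facial tissue than in limb by 1.62 (SE 0.26, adjusted p = 1.6e-05). Within replicates 4 to 6 the facial to limb difference was 1.36 (adjusted p = 0.075). For FNP against MXP the difference was −0.86 and not called (adjusted p = 0.14), but without FNP replicate 2 Sox10 was called lower in FNP at −1.12 (adjusted p = 0.022). Sox10 was lower in MNP than in MXP by 1.72 (SE 0.33, adjusted p = 0.0011), the 1 call among the 10 genes in that comparison, where 0.344% of all genes were lower in MNP. That difference was −1.50 within replicates 1 to 3 and −1.96 within replicates 4 to 6, and neither set alone passed the test. For dB against vB the difference was −0.82 (adjusted p = 0.14), and 0 of the 10 genes were called, with 1.39% of all genes called in either direction. At an unadjusted p under 0.05, 3 of the 10 were lower in dB, Sox10, Sox5 and Sox8, with the share of all genes at that threshold not counted. With a pseudocount of 0.1 in place of 1, which weighs low values more, Sox10 was called at −2.21.

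The balance of the SoxE genes differed between tissues. Sox9 made up 93.8 ± 2.2% of the sum of Sox8, Sox9 and Sox10 in dB (SD, n = 6), 88.7 ± 1.9% in vB (n = 6), 82.3 ± 2.0% in FNP (n = 6), 72.3 ± 11.3% in MNP (n = 6), 45.0 ± 19.6% in MXP (n = 5) and 91.2 ± 3.5% in limb (n = 6). In MXP Sox10 made up 42.2 ± 15.3%, and in replicates 2, 3 and 6 Sox10 exceeded Sox9, with ratios of Sox9 to Sox10 of 0.79, 0.53 and 0.47. In every other library of the 35 but MXP replicates 1 and 5, that ratio was above 4. Those 2 had 2.17 and 2.98. The Sox10 sum included a 397-base transcript, which held 21.1% of it in MXP, 29.8% in FNP and 34.9% in limb. The leading Sox10 transcript alone reached at most 8.63 FPKM in MXP, below the 9.17 FPKM of Sox9 in replicate 2. In that library Sox10 therefore exceeded Sox9 only as a sum over transcripts.

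**Figure D4:**
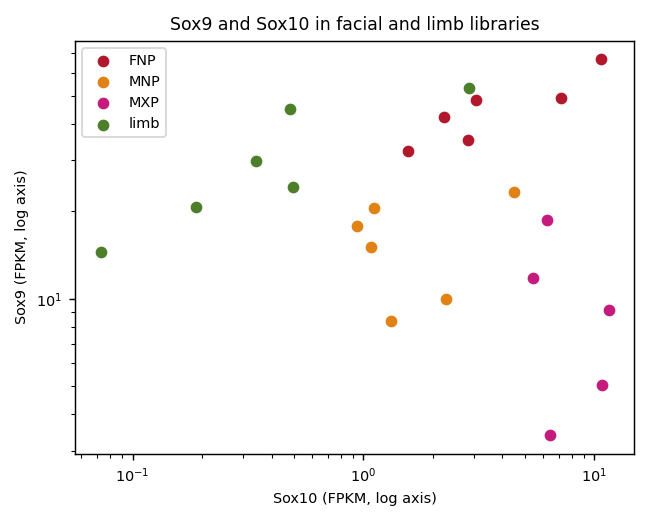
Each point is 1 library of FNP, MNP, MXP or limb, with Sox10 on the horizontal and Sox9 on the vertical axis, both in FPKM on log axes. MXP libraries lie at 5.42 to 11.58 FPKM of Sox10, above all limb libraries, which lie at 0.07 to 2.865 FPKM. The highest limb value of Sox10 is within the MNP range of 0.94 to 4.50 FPKM. For Sox9, MXP (3.40 to 18.65 FPKM) and limb (14.47 to 53.04 FPKM) overlap. FNP libraries are above all MNP and MXP libraries for Sox9.

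Sox8, the third SoxE gene, was low in all tissues, with 1.57 ± 0.75 FPKM in dB, 2.73 ± 1.19 FPKM in vB, 5.34 ± 2.17 FPKM in FNP, 3.89 ± 1.28 FPKM in MNP, 2.46 ± 0.78 FPKM in MXP (n = 5) and 2.12 ± 0.68 FPKM in limb (SD, n = 6 elsewhere). Its 1 called pair was dB against FNP, at −1.29 (SE 0.24, adjusted p = 7.7e-05 in limma), where every dB library lay below every FNP library and 4.11% of all genes were called lower. Within replicates 1 to 3 this was −0.78 and was not called. Other Sox8 differences passed the adjusted p in limma and missed only the fold of 2. Among them were dB against MNP, at −0.943 (adjusted p = 0.0023), and FNP against limb, at 0.985 (adjusted p = 0.0043), both without overlap of libraries. Neural against facial tissue was another, at −0.64 (adjusted p = 0.00095). With a pseudocount of 0.1, dB against MNP (−1.33), vB against FNP (−1.04) and FNP against limb (1.26) were called. The dB to MNP call was also made under quantile normalization and with the sequencing run as a block. It was made as well without any one of dB replicates 2 or 6 or MNP replicates 4 or 5. FNP against limb was called without any one of FNP replicates 2 or 3 or limb replicates 4, 5 or 6. FNP replicates 4 and 5, which carried Sox1, were the highest 2 of all 35 libraries for Sox8, at 8.39 and 7.45 FPKM.

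Genes of cartilage matrix and of crest glia, whose expression Sox9 and Sox10 are known to drive, were measured beside them. Of 11 cartilage genes 8 were tested, and 2 were higher in FNP than in MXP, Col2a1 and Col9a3. Col2a1, the main collagen of cartilage, had 93.0 ± 24.4 FPKM in FNP (SD, n = 6) and 39.0 ± 17.7 FPKM in MXP (n = 5), a difference of 1.32 (SE 0.37, adjusted p = 0.022 in limma). None was called between FNP and MNP in limma, with 3 of 8 higher in FNP at an unadjusted p under 0.05, a threshold at which all genes were not counted. Col9a1 was higher in MNP, at 35.1 ± 17.2 FPKM (n = 6), than in MXP, at 7.49 ± 3.55 FPKM (n = 5). Of 10 genes of crest glia and pigment cells 5 were tested. Foxd3, a crest factor, was lower in MNP, at 0.86 ± 0.53 FPKM (n = 6), than in MXP, at 3.21 ± 0.92 FPKM (n = 5), by 1.20 on the log2 scale. Foxd3 was also lower in FNP than in MXP, by 1.62. Erbb3, another of the 5, was called higher in FNP than in MNP, the 1 call of the list in that comparison. Between neural and facial tissue, Ednrb and Dct were called higher in neural tissue, unlike Sox10, and Erbb3 was called lower, like Sox10. The mean log2(FPKM + 1) of the crest list was 0.62 to 0.83 in FNP, 0.39 to 0.78 in MNP and 0.85 to 1.05 in MXP. Limb replicate 6, the limb library with Sox10, was the highest limb library for 5 of these 10 genes, and also for 10 of the 11 cartilage genes, 3 of 4 muscle genes and 5 of 8 mesenchyme genes. Whether the amount of crest glia, cartilage or other cells accounts for the Sox10 values was not tested.

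Summed by group, the 4 SoxB genes held most of the FPKM of these 10 genes in the brain and little in limb. Their sum was 234 ± 52 FPKM in dB, 226 ± 86 FPKM in vB, 44.3 ± 23.8 FPKM in FNP, 6.11 ± 1.37 FPKM in MNP, 8.15 ± 4.48 FPKM in MXP and 1.44 ± 2.31 FPKM in limb (SD, n = 6 and n = 5 for MXP). That was 63.1 ± 5.5% of the sum over the 10 genes in dB and 54.5 ± 5.1% in vB, against 1.21 ± 1.93% in limb, where Sox11 held 65.6 ± 7.2%. The SoxD share was 3.16 to 6.41% on average in every tissue. Of all 19 Sox genes measured, with Sox14 counted as SoxB and Sox4 and Sox12 as SoxC, SoxB held 44.1 ± 4.4% in dB and 38.5 ± 2.8% in vB, and SoxC held 42.5 ± 5.8% in dB and 47.7 ± 7.0% in vB (SD, n = 6 each).

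**Figure D5:**
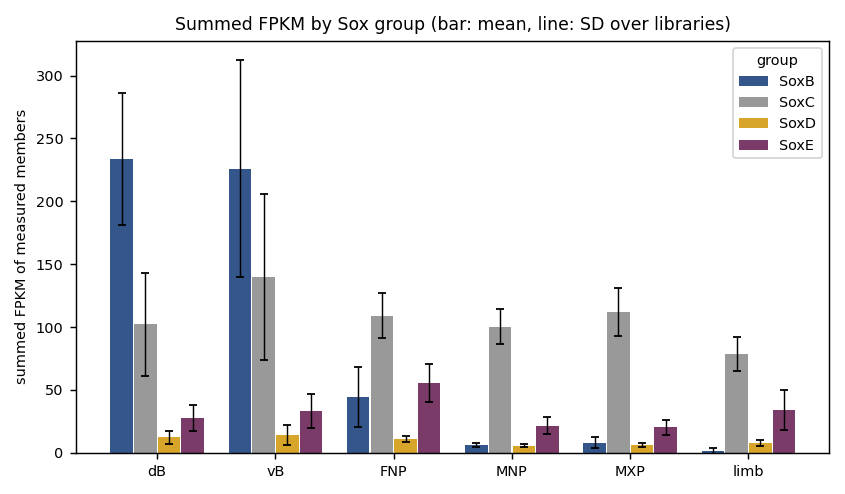
Bars give the mean summed FPKM of the genes described here in each Sox group and tissue, and lines the SD over libraries. SoxB is Sox1, Sox2, Sox3 and Sox21, SoxC is Sox11, SoxD is Sox5 and Sox6, and SoxE is Sox8, Sox9 and Sox10. The SoxB bar is 234 and 226 FPKM in dB and vB and 1.44 FPKM in limb.

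The genes whose level followed each Sox gene most closely over the 35 libraries, by Pearson's r of log2(FPKM + 1), were mostly neural for the SoxB1 genes. Hes5, a Notch target of neural progenitors, led for Sox1 (r = 0.985), and Nr2e1, an orphan nuclear receptor of neural stem cells, for Sox3 (r = 0.989). Gadd45g led for Sox2 (r = 0.960). These values follow mostly from the difference between brain and the rest. After the tissue means were subtracted, Zic1 led for Sox1 (r = 0.963), Nr2e1 for Sox2 (r = 0.884) and Sox1 for Sox3 (r = 0.875). The libraries include FNP replicates 4 and 5, MXP replicate 5, limb replicate 1 and vB replicate 4, whose Sox1 stood apart within their tissues. How far those libraries set the r values after subtraction was not tested. Outside the SoxB genes the best values over all libraries were Gnaq for Sox11 (r = 0.915), Cyth1 for Sox5 (r = 0.837), Rasal2 for Sox6 (r = 0.918), Sh3gl3 for Sox8 (r = 0.753), Pip4k2a for Sox9 (r = 0.842) and Baiap2l2 for Sox10 (r = 0.900). For Sox10 the best after subtraction were Wwp2 (r = 0.917) and the cartilage gene Matn4 (r = 0.906).

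A further 9 Sox genes were in the tables and 7 passed the filter. None was called between neural and facial tissue in limma, with 3 at an unadjusted p under 0.05 that missed only the fold of 2. These were Sox13 at 0.97 (adjusted p = 1.9e-06), Sox18 at −0.48 (adjusted p = 0.029) and Sox7 at −0.26 (adjusted p = 0.040). How many of all genes had an unadjusted p under 0.05 in that comparison was not counted. Of the 7, 2 were higher in neural tissue than in limb, Sox13 (SoxD), at 13.6 ± 5.3 FPKM in neural tissue (SD, n = 12) and 6.14 ± 2.25 FPKM in limb (n = 6), and Sox14 (SoxB2), at 2.09 ± 1.15 FPKM (n = 12) and 0.34 ± 0.08 FPKM (n = 6). Their log2 fold changes were 1.01 (adjusted p = 9.0e-05 in limma) and 1.12 (adjusted p = 2.1e-05). Sox14 was also higher in MXP than in limb, by 1.27. Sox4 and Sox12, the other SoxC genes, had 57.9 to 109.9 and 39.5 to 53.9 FPKM as tissue means. Of the endothelial SoxF genes, Sox18 had 9.61 to 15.9 FPKM and Sox7 and Sox17 had 1.86 to 3.09 FPKM. Sox15 and Sox30, at tissue means of 0.022 to 0.153 FPKM, did not pass the filter.

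The tissue labels were checked against markers. Of 10 neural progenitor genes 9 and of 12 neuron genes 11 were called higher in neural tissue than in the face, all 8 surface epithelium genes were lower and 6 of 8 mesenchyme genes were lower. Mesenchyme genes were not at 0 in the brain, with a mean log2(FPKM + 1) of 4.20 to 5.09 in dB and 0.73 to 5.11 in vB, against 5.56 to 6.98 in the face and 5.09 to 6.08 in limb.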

How the data were processed

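The authors deposited 1 table of Cufflinks estimates per library, on mm10 by the submitters' processing notes, which also name Bowtie2 and DESeq2. The aligner behind the Cufflinks estimates is not given in the sources used here. The deposited FPKM values per transcript were summed per gene symbol. The deposited coverage values, a signal of read depth per transcript, served only to describe depth. Of 59120 transcripts per table, 65 whose FPKM could not be read were left out. No 2 libraries were identical, and none of the 29 transcripts of the 10 Sox genes had a failed or low-data status.

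Samples were grouped by tissue from their labels. Whether the libraries came from separate litters is not stated in the labels, while the methods call them independent, so p-values measure the spread between these pools. In R 4.3.3 with limma 3.58.1, log2(FPKM + 1) was fitted for the 13934 genes that averaged 1 FPKM or more in 1 or more tissues, with 1 mean per tissue and trend and robust options. The 15 pairs of tissues and 3 comparisons of categories were tested, each Benjamini-Hochberg adjusted over all genes. The fit was tested on simulated data. Python 3.11.15 and pandas 2.3.3 were used for the tables.

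The genes, marker lists and tests were chosen with earlier results of these data known. Named genes were the 10 members, all other Sox genes, up to 3 genes of a list with the largest called fold change in the comparison discussed, the 3 genes closest to each member by r, and genes overlapping a member. A few genes that this rule or the marker lists would take in are not reported here, and the counts of their lists leave them out. Alternatives were each library left out in turn, a pseudocount of 0.1, no low filter, quantile normalization, a block for the sequencing run, a block for the replicate number, each of the 2 sets of runs alone, and the highest transcript alone. The fit without FNP replicates 4 and 5, MXP replicate 5 and limb replicate 1 was chosen after the data were seen.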

Additional observations from a re-analysis of the deposited data

Results flagged for a closer look

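In 60 groups, 1 per Sox gene and tissue, the highest or lowest library was compared with the rest of its group. In 11 of these groups 1 library stood apart by Dixon's ratio at 95%. Chance gives that in about 1 group of 20 where values are normal. The 10 genes were read in the same libraries, so the groups are not independent and the 11 cannot be set against that rate. Limb replicate 1 had 0.967 FPKM of Sox1, 2.64 FPKM of Sox2 and 2.06 FPKM of Sox3, where the other limb libraries had at most 0.167, 0.385 and 0.066 FPKM. MXP replicate 5 had 2.47 FPKM of Sox1, where the others had at most 0.096 FPKM. In vB replicate 4, Sox1 was 9.47 FPKM, Sox2 36.4 FPKM and Sox8 0.564 FPKM, where the other vB libraries had at least 32.9, 102 and 2.69 FPKM. Replicate 4 of dB had 12.0 FPKM of Sox21, where the others had at least 17.8 FPKM. In FNP replicate 2, Sox11 was 144 FPKM and Sox5 9.59 FPKM, where the others had at most 109 and 7.20 FPKM. Limb replicate 6 had 2.87 FPKM of Sox10, where the others had at most 0.494 FPKM. In limb the leading Sox10 transcript reached at most 1.315 FPKM, and the 397-base transcript at most 1.549 FPKM. The 2 FNP libraries with Sox1 were not among these, since they lie close to each other.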

How the results depend on the processing

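None of the 75 calls among the Sox genes over 18 comparisons changed direction in any of the refits, while the transcript with the highest mean alone gave levels only. With a pseudocount of 0.1, 4 genes were called between facial tissue and limb and 1 between dB and vB, where calls over all genes went up to 6.10% and 2.51%, against 2.62% and 1.39% with a pseudocount of 1. Within replicates 4 to 6 alone, 0 genes were called for FNP against MXP and 0 for MNP against MXP, and within replicates 1 to 3 alone 0 for MNP against MXP. Over all genes the share called in replicates 4 to 6 was 0.780% and 0.332% for these comparisons, against 2.28% and 1.03% in all libraries, and in replicates 1 to 3 it was 0.719% for MNP against MXP. Of the 75 calls 19 and 3 were lost in these sets, which have at most 3 libraries a tissue. With 1 library left out, the counts of called genes were 5 to 6 for neural against facial tissue, 4 to 5 for neural tissue against limb, 2 to 3 for facial tissue against limb, 0 for dB against vB, 4 to 6 for FNP against MNP, 4 to 5 for FNP against MXP and 1 for MNP against MXP. The call added for FNP against MXP was that of Sox10, lower in FNP, without FNP replicate 2, or that of Sox5, higher in FNP, without MXP replicate 5. Over any pair of tissues 7 to 10 genes were called across the alternatives. The call of Sox10 between vB and FNP (−1.25) was −0.99 and not made without FNP replicate 2. Quantile normalization and the sequencing run as a block each lost 2 calls, both of Sox6 (neural tissue and dB against limb), and dropping the filter lost 0. The first 2 settings gained 1 and 2 calls. Sox8 was called lower in dB than in MNP in both (−1.139 and −1.045). Sox9 was called lower in MNP than in limb with the run as a block (−1.046). With the replicate number as a block, 0 calls were lost and 0 gained, with 6, 5 and 2 genes called between the 3 categories. Libraries of the same number deviated together (median r = 0.342, above 0.1 in 78 of 85 pairs, against a median of −0.074 and 57 of 425 pairs for different numbers), but not in every pair, and the labels do not say what a number shares, so the block stayed an alternative. Without read counts, how far depth limits the low values of Sox1, Sox3 and Sox10 is unknown.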
